A study of Mus musculus with 4 samples.

Results

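The Krüppel-like factors (KLFs) are transcription factors that bind GC-rich and CACCC-type DNA through zinc fingers at the end of the protein. The 10 genes described here are those other than the red cell factor Klf1 that were chosen by symbol: Klf2, Klf3, Klf4, Klf6, Klf7, Klf9, Klf10, Klf11, Klf12 and Klf13. All 10 were measured, by 11 of the 41345 probe sets on the array, and they are 10 of the 22180 genes tested. Klf7 had 2 probe sets and each other gene had 1.

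The samples were LSK cells, the lineage-negative, Sca1-positive and c-Kit-positive bone marrow fraction that contains blood stem cells and early progenitors. They were sorted from male mice aged 8 weeks, 2 samples from SRC-3 knockout (KO) mice and 2 from wild-type (WT) mice, with 1 Affymetrix array each. Bone marrow was flushed from femur and tibia, and red cells were lysed before sorting. SRC-3, the product of Ncoa3, helps nuclear receptors and other factors to activate transcription. The labels call the 2 samples of each group biological replicates. Which part of Ncoa3 was deleted, in which cells, and how many mice a sample pooled are not given. How much of the spread between mice the p-values measure is therefore not known. Ncoa3 stood at 5.35 and 5.09 in KO, against 7.76 and 7.05 in WT, on the log2 scale.

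KLFs fall into groups by the partners they recruit. One group (Klf2, Klf4, Klf6 and Klf7) acts mainly as activators, although Klf4 also represses. Klf3 and Klf12 repress through the corepressor CtBP. Klf9, Klf10, Klf11 and Klf13 repress through Sin3 and histone deacetylases. In blood, Klf2 is known for holding T cells in quiescence and guiding their traffic, and Klf4 for monocyte development.

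Because KLFs can bind each other's promoters, the 250 bases before the start of Klf2, Klf4, Klf6 and Klf9 are shown. Capitals mark matches on either strand to the KLF element CCNCNCCC, to the MEF2 consensus or to the FOXO motif TGTTTAC. Sequences are from RefSeq, build GRCm38.p6, 5′ to 3′ on the gene's strand. Their positions are chr8:72318812-72319061 (plus strand), chr4:55532476-55532725 (minus strand), chr13:5861239-5861488 (plus strand) and chr19:23140976-23141225 (plus strand).
Klf2: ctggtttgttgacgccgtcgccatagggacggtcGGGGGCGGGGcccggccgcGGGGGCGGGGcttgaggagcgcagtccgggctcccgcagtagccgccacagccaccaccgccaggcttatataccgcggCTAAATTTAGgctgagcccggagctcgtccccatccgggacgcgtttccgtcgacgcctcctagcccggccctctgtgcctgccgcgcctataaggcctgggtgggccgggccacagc
Klf4: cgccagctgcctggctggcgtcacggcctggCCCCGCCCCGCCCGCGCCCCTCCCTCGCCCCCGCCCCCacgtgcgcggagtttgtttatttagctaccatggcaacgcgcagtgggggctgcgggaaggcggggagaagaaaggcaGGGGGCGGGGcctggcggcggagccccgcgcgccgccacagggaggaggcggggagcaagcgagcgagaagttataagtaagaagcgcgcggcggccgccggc
Klf6: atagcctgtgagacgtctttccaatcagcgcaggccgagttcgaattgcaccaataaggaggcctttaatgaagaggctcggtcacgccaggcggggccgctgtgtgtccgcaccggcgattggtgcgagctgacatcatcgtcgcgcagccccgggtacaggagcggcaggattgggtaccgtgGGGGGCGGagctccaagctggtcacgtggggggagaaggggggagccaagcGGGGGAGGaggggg
Klf9: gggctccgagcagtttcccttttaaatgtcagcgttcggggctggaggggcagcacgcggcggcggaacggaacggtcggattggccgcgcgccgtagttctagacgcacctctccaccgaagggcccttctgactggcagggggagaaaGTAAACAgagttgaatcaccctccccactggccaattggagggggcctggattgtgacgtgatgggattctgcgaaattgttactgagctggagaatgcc
The Klf2 window held 4 KLF element matches, which overlap in pairs, and 1 MEF2 match from 118 to 109 bases before the start. The Klf4 window held 9 KLF element matches, many overlapping, and the Klf6 window held 2. The Klf9 window held 0 KLF element matches and 1 FOXO motif, from 100 to 94 bases before the start. The table held 9 of the 10 genes, and Klf10 is named only. Counts over these 9 windows ran from 0 in Klf9 to 10 in Klf3. The KLF element stood in 8 of the 9 windows and in 45.9% of all 32851 promoter windows of the same length. The MEF2 consensus was in 0.508% and the FOXO motif in 3.17% of them. A match is a run of letters and was not tested as a binding site.

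Of the 10 KLF genes, 9 had a lower mean in KO LSK cells, as 50.2% of all genes did, and 1, Klf11, a higher one, although Klf3 and Klf9 turned positive after quantile normalization and Klf9 also after centring each array on its median gene. For 6 of them, Klf2, Klf4, Klf6, Klf10, Klf12 and Klf13, both KO arrays lay below both WT arrays, an order that 22.9% of all genes showed. Klf11 showed the opposite order by under 0.001, as 25.1% of all genes did by some margin. The same 6 were lower at an unadjusted p under 0.05 in limma, against 6.93% of all genes, and 0 were higher, against 10.5%. None passed an adjusted p under 0.05 in limma, which 0.113% of all genes passed as lower and 0.397% as higher. The median difference was -0.52 (log2, KO minus WT) over the 10 genes and -0.001 over all genes. In bulk RNA, fewer cells that express a gene and less RNA per cell cannot be told apart.

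**Figure D1:**
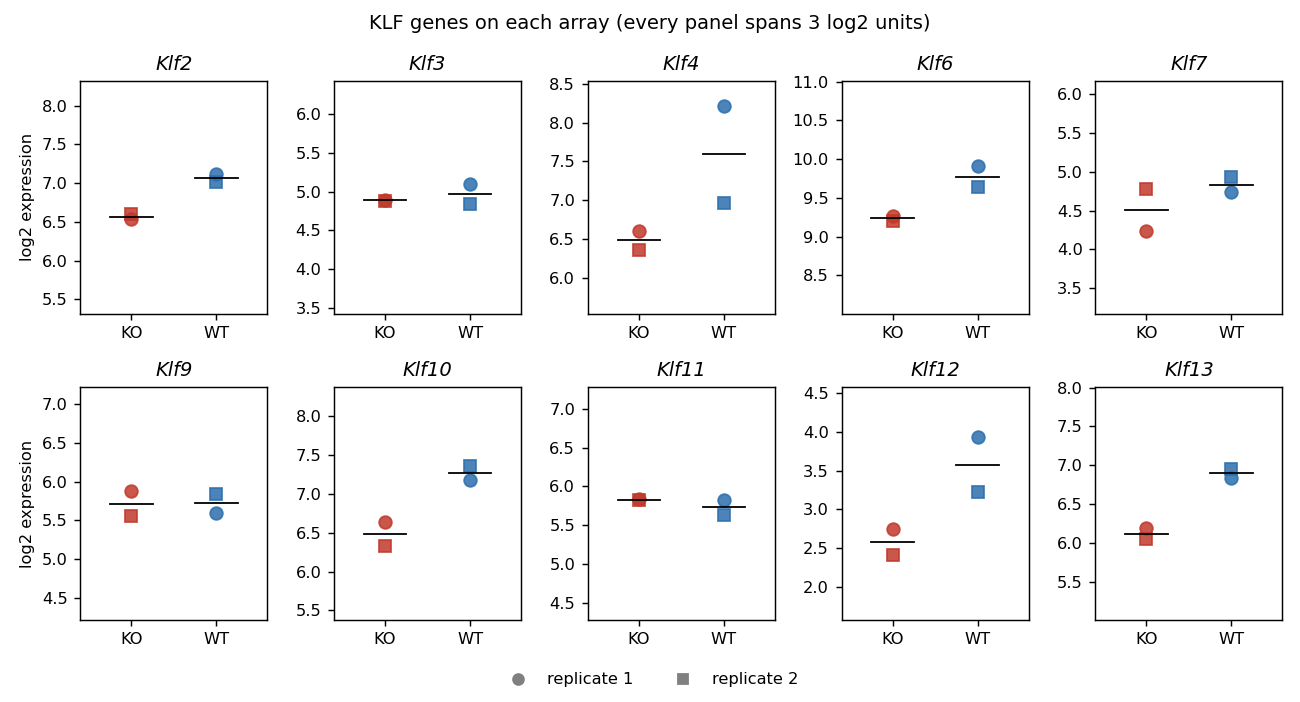
Log2 expression of the 10 KLF genes on each array, with KO left and WT right in each panel, circles for replicate 1, squares for replicate 2 and a line at the group mean. In 6 panels both KO points lie below both WT points, and the 2 WT points of Klf4 lie 1.25 apart.

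Klf13, a repressor that works with Sin3, had the smallest p of the 10. It measured 6.19 and 6.05 in KO, against 6.84 and 6.95 in WT. The gap of 0.64 between the groups was wider than the distance between the arrays of either group, which was 0.14 in KO and 0.12 in WT. The difference was -0.78 ± 0.17 (moderated SE), or 1.71-fold lower in KO, with an adjusted p of 0.11 in limma.

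Klf10, which TGF-beta induces as an early response gene, measured 6.64 and 6.33 in KO, against 7.18 and 7.36 in WT. The groups lay 0.54 apart, with the 2 KO arrays 0.30 and the 2 WT arrays 0.18 from each other. The difference was -0.79 ± 0.19 (SE), or 1.72-fold lower in KO (limma adjusted p = 0.13). Klf11, its closest relative and also a TGF-beta response gene, measured 5.83 and 5.83 in KO, against 5.83 and 5.63 in WT. The KO arrays were level with the higher WT array, and the difference was 0.10 ± 0.18 with a 95% interval from -0.33 to 0.53.

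Klf9, which glucocorticoids and thyroid hormone induce, measured 5.88 and 5.55 in KO, against 5.60 and 5.84 in WT. The groups overlapped, and the difference of -0.01 had a 95% interval from -0.49 to 0.48. Among the Sin3-type repressors, Klf10 and Klf13 had lower values in KO and Klf9 and Klf11 overlapping or near-equal ones.

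Of the activator group, Klf2 measured 6.53 and 6.60 in KO, against 7.12 and 7.01 in WT. The arrays of a group lay within 0.11 of each other and the groups 0.41 apart. The difference was -0.50 ± 0.17 (SE), or 1.42-fold lower in KO (limma adjusted p = 0.21).

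Klf6, a widely expressed factor that injury and stress induce in several tissues, measured 9.27 and 9.21 in KO, against 9.91 and 9.64 in WT. The groups lay 0.37 apart, more than the 0.26 between the WT arrays. The difference was -0.54 ± 0.15 (SE), or 1.45-fold lower in KO (limma adjusted p = 0.16).

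Klf4, which is also one of the reprogramming factors of pluripotency, measured 6.61 and 6.36 in KO, against 8.22 and 6.96 in WT. Both KO arrays were lower, but the gap of 0.36 to the nearer WT array was far smaller than the 1.25 between the WT arrays. The difference of -1.11 ± 0.39 (SE) was the largest of the 10 and had the widest 95% interval, from -2.05 to -0.17 (limma adjusted p = 0.22). Without WT replicate 1 it was -0.48, and without WT replicate 2 it was -1.73.

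Klf7, known best from neurons, measured 4.24 and 4.77 in KO, against 4.73 and 4.93 in WT with its brighter probe set (17223766). The groups overlapped, and the difference was -0.33 ± 0.23 (SE), with a 95% interval from -0.88 to 0.22. It was -0.06 without KO replicate 1 and -0.59 without KO replicate 2. The dimmer probe set of Klf7 (17213666) measured 2.25 and 2.35 in KO, against 1.99 and 2.20 in WT. Its difference was 0.21, opposite in sign to that of the brighter one, with a 95% interval from -0.17 to 0.59 in the fit over single probe sets.

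Klf12, a CtBP-dependent repressor, measured 2.74 and 2.41 in KO, against 3.93 and 3.22 in WT. It was the member below the median gene of 4.32, where RMA values are compressed, and the 0.48 between the groups was smaller than the 0.71 between the WT arrays. The difference was -1.001 ± 0.27 (SE), or 2.002-fold lower in KO (limma adjusted p = 0.14), and -0.65 without WT replicate 1. Klf3, the other CtBP-dependent member, measured 4.90 and 4.88 in KO, against 5.09 and 4.84 in WT. The groups overlapped, and its difference was -0.08 with a 95% interval from -0.51 to 0.36.

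**Figure D2:**
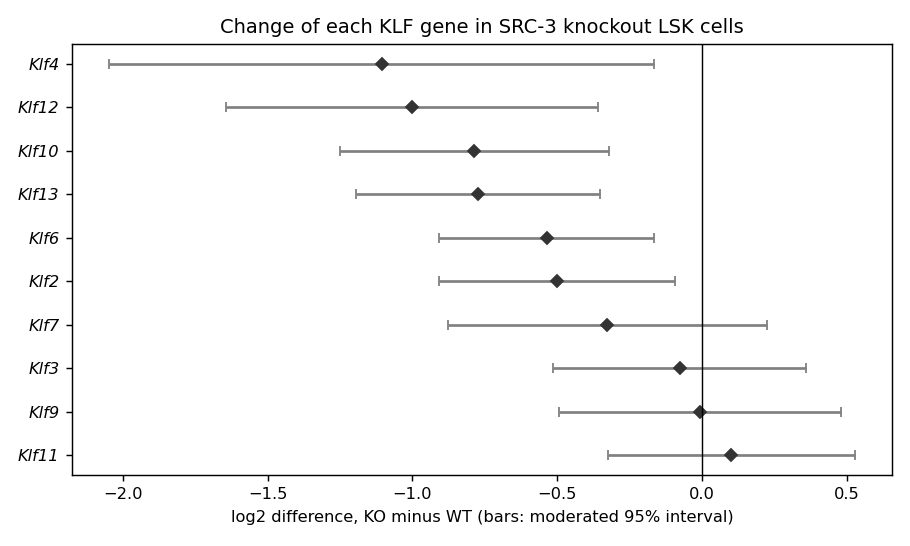
Log2 difference, KO minus WT, of each KLF gene with its moderated 95% interval. The 6 lowest intervals, from Klf4 at -1.11 to Klf2 at -0.50, lie below 0, and those of Klf7, Klf3, Klf9 and Klf11 cross it.

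The difference within pairs of related members was set between the genotypes on each array, relative to the WT mean of the same pair. Klf10 minus Klf11 stood at -0.74 and -1.04 in KO, against -0.19 and 0.19 in WT. Klf13 minus Klf9 stood at -0.86 and -0.68 in KO, against 0.06 and -0.06 in WT. Both pairs were lower on each KO array than on either WT array. Klf12 minus Klf3 stood at -0.77 and -1.08 in KO, against 0.23 and -0.23 in WT. For Klf4 minus Klf2, at -0.45 and -0.76 in KO and 0.57 and -0.57 in WT, the groups overlapped. The exact two-sided permutation p was 0.333 for each of the first 3 pairs, the smallest that 2 against 2 arrays allow, and 0.667 for Klf4 and Klf2.

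**Figure D3:**
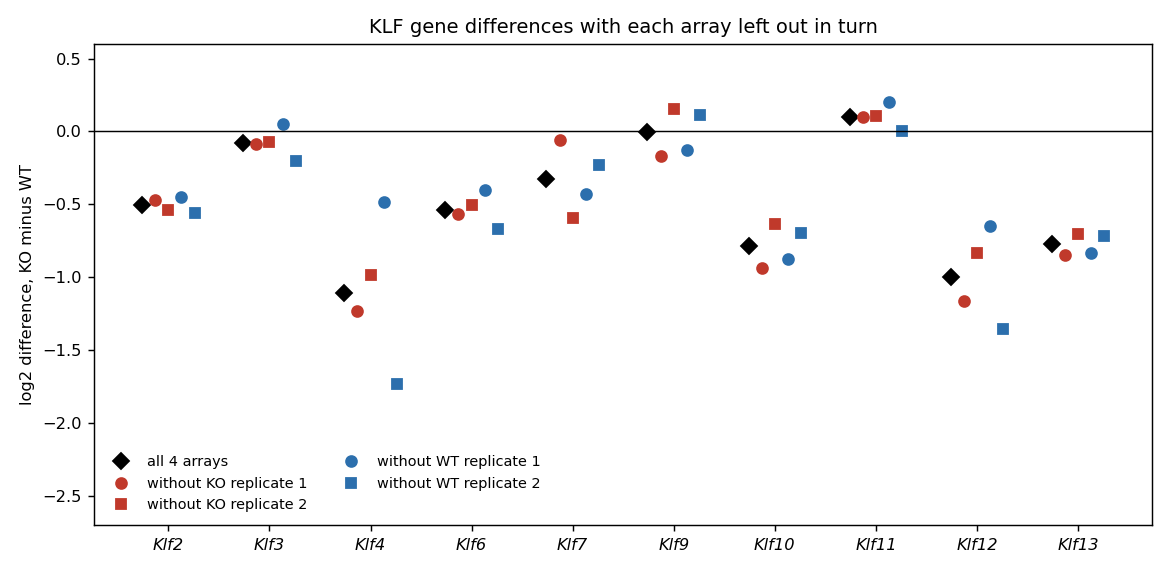
Log2 difference, KO minus WT, of each KLF gene with all 4 arrays (diamonds) and with 1 array left out (red for a KO array, blue for a WT array). Klf13 stays between -0.85 and -0.70, Klf4 ranges from -1.73 to -0.48, and Klf3 and Klf9 lie on both sides of 0.

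The call for the 6 lower genes depended on single arrays. Without WT replicate 2, 5 passed an adjusted p under 0.05 in limma: Klf2, Klf4, Klf6, Klf12 and Klf13. In that fit 3002 of all 22180 genes passed. Without WT replicate 1, Klf6 and Klf13 passed, among 1754 genes. Without KO replicate 1 or KO replicate 2, 0 members and 0 genes passed in limma, and at an unadjusted p under 0.05 there were 3 and 0 members lower, against 2.86% and 4.22% of all genes. For the 6 genes the sign of the difference was negative with each array left out. That follows from both KO arrays lying below both WT arrays and is no further support.

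The other KLF genes and their SP relatives bind similar GC-rich sites. Of these 15 measured genes, 1 rose past the adjusted threshold and 0 fell, against 0.397% and 0.113% of all genes. That gene was Klf1, the red cell factor, at 7.06 and 6.80 in KO, against 4.92 and 4.04 in WT (limma adjusted p = 0.039). Sp3, a general GC-box factor, was at -0.40 ± 0.16 (SE) and Sp6, an epithelial factor, at 0.33 ± 0.21. The median of these 15 genes was -0.14.

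Partners that KLFs recruit were 10 measured genes. At an unadjusted p under 0.05 in limma, 2 were lower and 1 higher, against 6.93% and 10.5% of all genes. None of the 10 passed the adjusted threshold, and their median was -0.23. The acetyltransferase genes Crebbp and Ep300, whose products acetylate several KLFs, were at -1.02 ± 0.15 and -0.88 ± 0.20 (SE), and the histone deacetylase gene Hdac1 was at 0.65 ± 0.22.

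The kinase ERK5 acts through MEF2 factors on Klf2 and Klf4, and FOXO factors act on Klf2 in T cells. Of 10 measured genes of these inputs, 6 reached an unadjusted p under 0.05 as lower and 0 as higher. Over all genes, the shares were 6.93% and 10.5%. None of the 10 passed the adjusted threshold in limma, and their median was -0.52. Foxo1 was at -0.78 ± 0.18, Mef2c at -0.62 ± 0.16 and Mef2a at -0.75 ± 0.20 (SE). Mapk7, which encodes ERK5, was at 0.05 ± 0.23, and its groups overlapped.

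Reported targets of KLF2, KLF3 and KLF4 numbered 11 measured genes. At an unadjusted p under 0.05 in limma, 2 were lower and 1 higher, against 6.93% and 10.5% of all genes. None of the 11 passed the adjusted threshold, and their median was -0.19. Cdkn1a, a cell cycle inhibitor that Klf2 and Klf4 activate, was at -0.86 ± 0.13 (SE). S1pr1, the receptor for lymphocyte egress that Klf2 activates in T cells, measured 5.38 and 4.90 in KO, against 6.12 and 5.54 in WT. Lgals3, which Klf3 represses, was at 0.50 ± 0.19 (SE).

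Of 10 measured TGF-beta response genes, set beside Klf10 and Klf11, 6 reached an unadjusted p under 0.05 as lower and 0 as higher. Of all genes, 6.93% and 10.5% did so. In this list 0 passed the adjusted threshold in limma, and the median was -0.51. All 10 had a lower mean in KO, as 50.2% of all genes did. The groups overlapped for Tgfb1 at -0.06, Smad2 at -0.22 and Tgif1 at -0.02. The feedback inhibitor genes Skil and Smad7 were at -1.06 ± 0.18 and -1.20 ± 0.25 (SE), and the receptor gene Tgfbr1 at -0.90 ± 0.18. Of 9 glucocorticoid response genes, set beside Klf9, 1 was lower at an unadjusted p under 0.05 in limma, against 6.93% of all genes. It was the clock gene Per1 at -1.33 ± 0.29 (SE). In this list 0 passed the adjusted threshold, and the median was -0.14. Tsc22d3, which encodes the glucocorticoid-induced leucine zipper protein, was at 0.36 ± 0.17 and the transcription factor gene Zbtb16 at -0.40 ± 0.19.

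**Figure D4:**
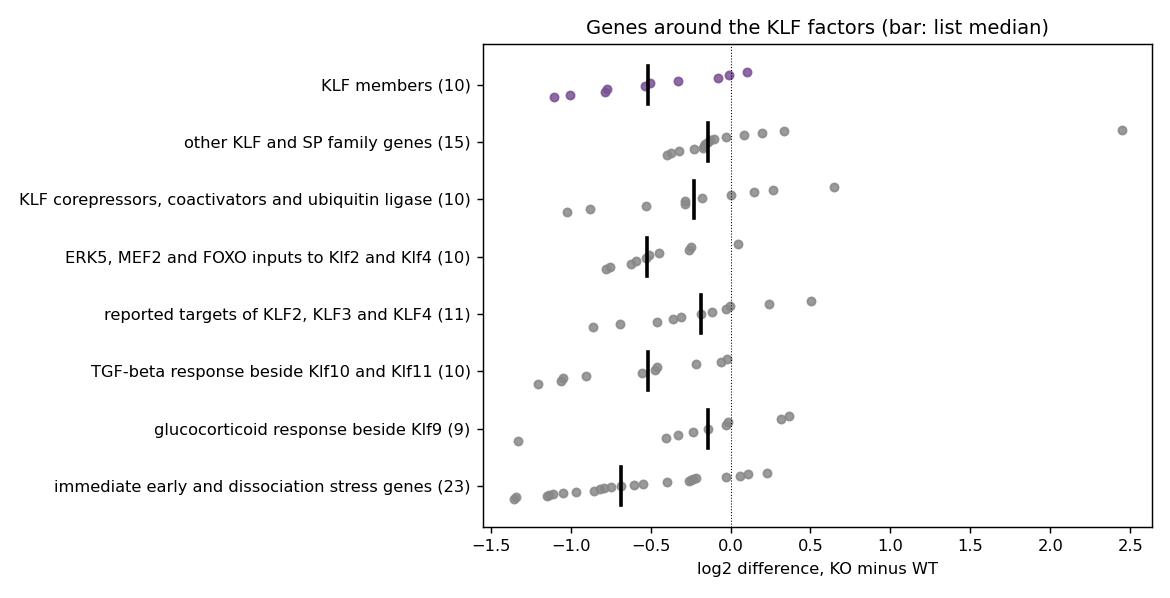
Log2 difference, KO minus WT, of the 10 KLF genes (purple) and of genes of 7 related lists (grey), each point 1 gene and each bar a list median. The KLF median is -0.52, and the medians of the other lists run from -0.69 for immediate early genes to -0.14; the point at 2.45 is Klf1.

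Klf2, Klf4, Klf6 and Klf10 are also induced rapidly by serum or cell handling in many cell types, so immediate early and dissociation stress genes were measured beside them. Of 23 such genes without a KLF, 15 reached an unadjusted p under 0.05 as lower and 0 as higher. Among all genes, limma gave 6.93% as lower and 10.5% as higher by this rule. The median of the 23 was -0.69, and 20 had a lower mean in KO. Both KO arrays lay above both WT arrays for Ier2 at 0.23, Ier5 at 0.11 and Jund at 0.06. For Jun, Junb, Dusp1 and Rhob the groups overlapped. Nr4a3, an orphan nuclear receptor gene, fell past the adjusted threshold, by 1.36 on the log2 scale (limma adjusted p = 0.048), and its relative Nr4a2 was at -1.34 ± 0.21 and Egr1 at -1.11 ± 0.23 (SE). The mean level of the 23 genes was 7.70 and 7.64 on the KO arrays, against 8.46 and 8.11 on the WT arrays, so WT replicate 1 was highest, as it was for Klf2, Klf3, Klf4, Klf6 and Klf12. Klf7, Klf10 and Klf13 were highest on WT replicate 2. The part of this list in the KLF values was not tested.

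Markers of other cells also differed with genotype. The mean level of 5 erythroblast markers was 6.17 and 6.21 in KO, against 4.31 and 4.21 in WT. Of these, Rhag, Ermap and Tspan33 rose past the adjusted threshold in limma, while Slc4a1, the anion exchanger of mature red cells, was lower at 2.999 and 3.61 in KO, against 4.15 and 4.38 in WT. The mean of 8 neutrophil markers was 5.37 and 5.36 in KO, against 4.27 and 4.74 in WT. An unadjusted p under 0.05 in limma was reached by 5 that were higher and 0 that were lower, against 10.5% and 6.93% of all genes. Those shares of all genes apply also to the counts of the marker lists below. Among the 5 higher neutrophil markers, Camp was at 1.80 ± 0.26, Ngp at 1.15 ± 0.17 and S100a8 at 1.501 ± 0.30 (SE). Ly6g, below the median gene, was the 1 neutrophil marker with a lower mean in KO, at -0.06 ± 0.16 (SE), and its groups overlapped. The 9 monocyte and macrophage markers averaged 6.78 and 6.79 in KO, against 6.55 and 6.53 in WT. In this list 2 markers reached an unadjusted p under 0.05, Fcgr1 at 1.16 ± 0.18 and Ly6c2 at 0.71 ± 0.13 (SE), and 3 had a lower mean in KO, Cx3cr1, Cd68 and Lyz2. The 8 T and NK cell markers averaged 3.43 and 3.45 in KO, against 3.39 and 3.68 in WT, and 2 of the 8 lay at or above the median gene. In that list 1 marker was lower at an unadjusted p under 0.05 in limma, Klrb1c at -0.85 ± 0.18 (SE), which lay below the median gene. Of the 8, 5 had a lower mean in KO, while Ncr1 was at 0.45 ± 0.20 (SE), with both KO arrays above both WT arrays. The 7 B lineage markers averaged 5.35 and 5.34 in KO, against 5.43 and 5.39 in WT, and 4 of them had a lower mean in KO. Cd79a, below the median gene, was lower at -0.42 ± 0.17 (SE). Cd79b went the other way at 0.27 ± 0.17 (SE), with both KO arrays above both WT arrays. The 6 megakaryocyte markers had a median of 0.01, with 1 higher at an unadjusted p under 0.05, Pf4 at 1.27 ± 0.26 (SE). The 8 endothelial and stromal markers had a median of 0.01, with 2 lower, Pdgfra at -0.59 ± 0.15 and Pecam1 at -0.44 ± 0.15 (SE).

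Of 5 measured genes of the sort and of early progenitors, an unadjusted p under 0.05 was reached by 3 that were lower and 0 that were higher, and their median of -0.60 was in the direction of the 6 KLF genes. Flt3, a receptor of multipotent progenitors, was at -1.21 ± 0.27, Cd34 at -0.68 ± 0.13 and Kit, which encodes the sorted c-Kit, at -0.60 ± 0.23 (SE). Kit measured 9.43 and 9.34 in KO, against 10.3 and 9.65 in WT. Ly6a, which encodes Sca1, was not analysed here. The part of these cells in the KLF values was not tested.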

How the data were processed

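Expression was measured on 4 arrays, 2 of KO and 2 of WT LSK cells. The authors deposited log2 expression values per probe set. RMA and Affymetrix Expression Console 1.2.1 are named in the submitters' processing notes, without settings, and the log2 scale was taken from the values (0.375 to 12.8). The genome build and filters are not given, and detection calls and scan dates were not used here. The number of arrays limits the precision.

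Of the 41345 probe sets, 23521 had 1 gene symbol in the platform annotation. The probe set of highest mean stood for its gene, giving 22180 genes. The comparison of KO with WT used limma 3.58.1 under R 4.3.3 on all 4 arrays, with empirical Bayes moderation and an intensity trend, two-sided, and Benjamini-Hochberg adjustment over all genes at a threshold of 0.05. Errors are moderated standard errors. Single probe sets were fitted the same way. The model was also run on simulated data with 200 changed genes and independent noise for each gene, without shifts shared across an array. That outcome is not given here.

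The KLF members and all gene lists were chosen with earlier results of these data known. Every member is named. From each other list the rule took genes past the threshold and up to 3 of smallest p. Mapk7, Ier2, Ier5, Jund, Tgfb1, Smad2, Tgif1 and the markers Slc4a1, Cx3cr1, Cd68, Lyz2, Ncr1, Cd79b, Slamf1 and Ly6g were added after their values were seen. Probe sets of different genes differ in response, so levels were not compared between genes.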

Additional observations from a re-analysis of the deposited data

How the results depend on the processing

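The 11 alternatives were a block for replicate number, averaging over the probe sets of each gene, fitting them singly, dropping genes below the median gene, quantile normalization, centring each array on its median gene, no intensity trend and each of the 4 arrays left out. The differences of Klf2, Klf4, Klf6, Klf10 and Klf13 were negative in all 11, and that of Klf12 in the 10 that kept it, since it lay below the median filter. Leaving out an array could not turn these signs, because both KO arrays lay below both WT arrays. The block, the probe set settings, the filter and the fit without a trend returned the same differences for these genes. Only quantile normalization and centring could have changed the sign. With arrays left out in turn, the number of members lower at an adjusted p under 0.05 in limma ran from 0 to 5, the number lower at an unadjusted p under 0.05 from 0 to 6 (against 2.86% to 12.3% of all genes), and the median difference from -0.61 to -0.44. A fit with 1 array in a group assumes that it varies like the other group. The other 7 alternatives gave 0 members past the adjusted threshold in limma and 5 or 6 members lower at an unadjusted p under 0.05, against 5.49% to 9.58% of the genes tested. Centring ended that call for Klf2 (limma unadjusted p = 0.063), and the filter at the median gene dropped Klf12. The difference of Klf3 was 0.044 after quantile normalization and ran from -0.21 to 0.051 with arrays left out, positive without WT replicate 1. That of Klf9 was 0.060 after quantile normalization and 0.041 after centring, and ran from -0.17 to 0.15 with arrays left out, positive without KO replicate 2 and without WT replicate 2. The cause was not tested.

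The samples share only a replicate number, which the labels do not tie to a litter or day, and deviations of same-numbered arrays from their group means correlated at 0.11 across genes. With the replicate number as a block, an unadjusted p under 0.05 was reached by 6 lower members and an adjusted one by 0 in limma, and 83 genes were higher and 28 lower over all genes, against 88 and 25 without it. With the filter at the median gene, 208 genes were higher and 81 lower, and after centring 196 and 51. After quantile normalization 142 were higher and 47 lower.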
